A study of Canis lupus familiaris with 6 samples.

Results

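The antiviral effectors MX1, MX2, OAS1, OAS2, OAS3, IFIT2, IFIT3, ISG15, RSAD2 and IFI44 are genes that cells switch on when type I or type III interferon reaches them. They were followed by every non-control probe that carries 1 of these symbols as its gene name in the scanner output of a canine array. The rule found 14 probes of 43603, in 22 spots per array, and they covered 9 of the 10 genes, out of 34378 gene names on the array. No probe carries the symbol IFI44 as its gene name, and probes annotated to it in other ways are described apart from the rest.

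The array samples were MDCK-pTR GFP-RasV12 cells, a line of canine kidney epithelial cells in which tetracycline switches on a GFP fusion of the oncogenic Ras mutant RasV12. Both groups received tetracycline for 24 h on collagen-coated dishes and were then sorted by flow cytometry for GFP. Each array thus holds RNA of cells sorted as GFP-positive, meaning RasV12 cells, and the purity of the sort is not given. In the group called alone (3 samples) the RasV12 cells were the whole culture, and in the group called mixed (3 samples) they were grown among normal MDCK cells, so the comparison asks what the presence of normal neighbours changed in RasV12 cells. The protocol states 10 MDCK cells per RasV12 cell, but mixed replicate 2 is labelled with 100 per RasV12 cell. Source names, the culture protocols and the study's data statement describe RasV12 cells with no further transgene, and the samples are taken as such here, although the RNA extraction entry mentions RasV12 cells with mCherry-β-catenin added. The 3 alone arrays were on slide 1 and the 3 mixed arrays on slide 2, so for every difference given here the slide and the culture cannot be told apart. The labels do not say that the replicates came from separate cultures, so p-values measure the spread between these samples, which may be technical. Between 60.8% and 66.4% of the probes were well above background on each array, and 26535 probes were tested.

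Interferons are secreted cytokines that act through cell surface receptors, JAK kinases and a complex of STAT factors with IRF9, which binds the promoters of many interferon-stimulated genes. The effectors act at different steps of a viral life cycle: the MX proteins are dynamin-like GTPases that trap viral nucleocapsids, the OAS enzymes sense double-stranded RNA and make oligoadenylates that act as second messengers, and the IFIT proteins bind foreign RNA ends. ISG15 is a ubiquitin-like protein that is conjugated to other proteins, RSAD2 (viperin) is an enzyme that makes a chain-terminating nucleotide, and IFI44 is a cytoplasmic protein induced by interferon.

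Probes of the paralogues were set against each other. Transcript sequences were not searched, so whether a 60-base probe could bind the transcript of a related gene was not tested. The following probe sequences are shown 5′ to 3′ with their canFam3 positions from the array annotation, and capitals mark the stretch that 2 probes of 1 gene have in common.
MX1 probe A_11_P051206, chr31:35926713-35926772: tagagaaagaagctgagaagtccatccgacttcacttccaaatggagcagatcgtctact
MX2 probe A_11_P051521, chr31:35882609-35882668: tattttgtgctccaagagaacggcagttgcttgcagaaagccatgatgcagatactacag
OAS1 probe A_11_P060006, chr26:10394078-10394957: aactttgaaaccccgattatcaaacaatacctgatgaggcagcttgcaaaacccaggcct
OAS2 probe A_11_P050701, chr26:10447645-10447704: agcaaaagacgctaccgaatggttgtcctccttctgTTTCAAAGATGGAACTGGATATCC
OAS2 probe A_11_P0000022833, chr26:10447681-10447740: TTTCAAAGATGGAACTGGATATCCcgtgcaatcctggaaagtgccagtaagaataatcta
OAS3 probe A_11_P060011, chr26:10418193-10418252: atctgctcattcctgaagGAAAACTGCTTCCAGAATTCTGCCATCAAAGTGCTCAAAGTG
OAS3 probe A_11_P050716, chr26:10418211-10419600: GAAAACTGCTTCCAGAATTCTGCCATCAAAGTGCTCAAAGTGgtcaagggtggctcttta
IFIT2 probe A_11_P0000024216, chr4:69559-69618: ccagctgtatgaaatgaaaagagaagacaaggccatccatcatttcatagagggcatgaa
RSAD2 probe A_11_P086586, chr17:4499251-4499310: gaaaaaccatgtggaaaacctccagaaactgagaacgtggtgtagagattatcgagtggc
The longest run of identical bases between an MX1 and an MX2 probe was 6, between probes of different OAS genes 7, and between IFIT2 and IFIT3 also 7. The 2 OAS2 probes have 24 bases in common and the 2 OAS3 probes 42, so neither pair is a set of independent measurements of its gene. The OAS1 probe shown spans 880 bases of the genome and OAS3 probe A_11_P050716 spans 1390, so the 60 bases of each come from stretches that are apart in the genome. The OAS probes lie in the order OAS1, OAS3, OAS2 along chromosome 26, and the MX2 and MX1 probes lie near each other on chromosome 31. Exon and UTR annotation of the positions was not used here.

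In mixed culture, 7 of the 14 probes were called higher and 0 were called lower (limma, Benjamini-Hochberg adjusted p under 0.05). They belong to 6 of the 9 genes: MX1 with both probes, MX2 with 1 of its 2, and IFIT2, IFIT3, ISG15 and RSAD2 with 1 each. Of all 26535 tested probes, 5.5% were called higher and 5.72% lower. No member probe was lower at an unadjusted p under 0.05 either, and 0 were called lower by the methods' t-test. The median log2 difference (mixed minus alone) was 0.90 over the 14 probes and 0.00 over all tested probes. IFIT2 was tested through its mixed arrays alone, and of the other 13, each well above background on every array, 6 were called when that was the filter, with a median of 0.87. All 6 probes of the OAS genes were among those not called, whereas 7 of the 8 other probes were called. In these bulk samples, a change in the share of cells that express a gene and a change in its RNA per cell cannot be told apart.

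**Figure D1:**
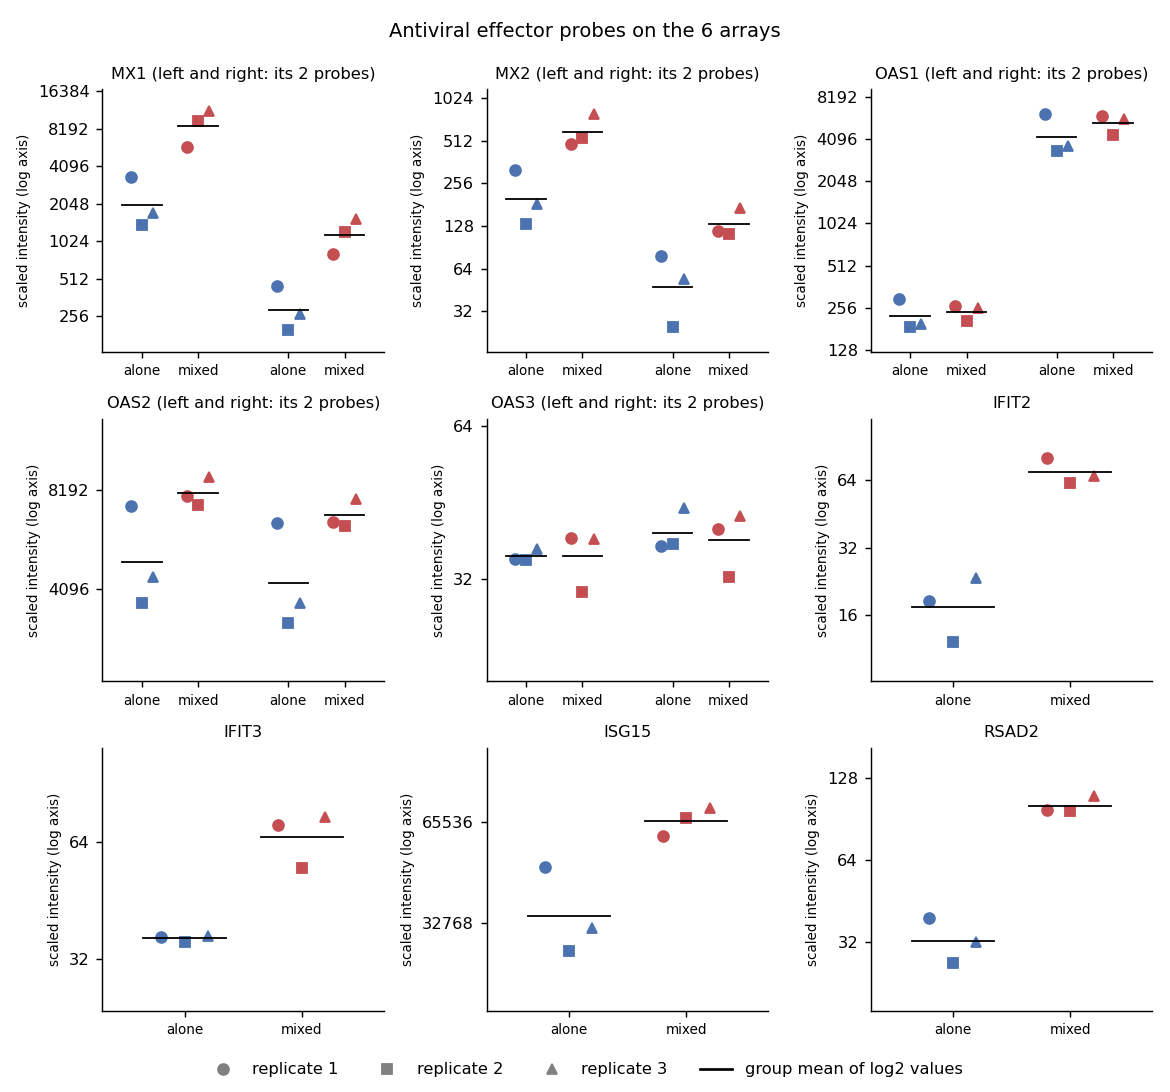
Scaled intensity (log axis) of each member probe on each array, with culture alone in blue, mixed culture in red, the replicate number as the symbol and a bar at the mean of the log2 values of a group (3 arrays each). Where a gene has 2 probes, the left pair of columns is the probe listed first in the text on values (MX1 A_11_P0000019855, MX2 A_11_P0000019854, OAS1 A_11_P050691, OAS2 A_11_P0000022833, OAS3 A_11_P050716); 9 of the 14 probes have all mixed arrays above all alone arrays.

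Values are scaled intensities, meaning the scanner's processed signal brought to 1 common 75th percentile of 639, and they can be compared between arrays but not between probes. In 9 of the 14 probes every mixed array was above every alone array, which held for 17.8% of the 26529 tested probes with a value on all 6 arrays. The other 5 probes are both of OAS1, both of OAS3 and OAS2 probe A_11_P050701. A difference of 1 on the log2 scale is a doubling.

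MX1, the canonical interferon-induced GTPase against influenza viruses, had the largest difference. Its probe A_11_P0000019855 (chr31:35929743-35929802) read 3377, 1392 and 1730 in alone replicates 1 to 3 and 5791, 9532 and 11323 in mixed replicates 1 to 3. Alone replicate 1 was the highest of the alone arrays and still below the lowest mixed array. The log2 difference was 2.09 (SE 0.38, 95% interval 1.18 to 2.998, adjusted p = 0.0254 by limma), a 4.25-fold higher intensity.
Its other probe, A_11_P051206, read 443, 198 and 265 alone and 801, 1202 and 1529 in mixed culture. Its log2 difference was 1.995 (SE 0.34), with a limma adjusted p of 0.0234, so the probes of MX1, which lie about 3 kb apart, gave differences within 1 SE of each other. With the replicate number as a block, the adjusted p of A_11_P0000019855 was 0.0504, above the threshold, and that of A_11_P051206 was 0.0456.

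MX2, the other member of the family, was called by 1 of its probes. A_11_P0000019854 (chr31:35883302-35883361) read 317, 133 and 184 alone and 488, 537 and 787 in mixed culture, a log2 difference of 1.58 (SE 0.33, limma adjusted p = 0.0354). A_11_P051521 read 78.6, 24.8 and 53.8 alone and 119, 113 and 171 in mixed culture. The groups did not overlap in either probe, and the second had a log2 difference of 1.48 (SE 0.41, 95% interval 0.49 to 2.47) with a limma adjusted p of 0.0657. With normexp background correction and its offset of 50 the latter was 0.78 and called (0.0327). The spread between the alone arrays was the larger one in both MX2 probes, with SDs of 0.63 and 0.85 on the log2 scale against 0.36 and 0.33 for mixed culture.

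RSAD2 had the smallest adjusted p of the members. It read 39.3, 27.0 and 32.1 alone and 98.0, 96.6 and 110 in mixed culture (chr17:4499251-4499310). The mixed arrays lay close together, with an SD of 0.10 on the log2 scale, and the lowest of them, 96.6, was well above the highest alone array, 39.3. The log2 difference was 1.64 (SE 0.14, 95% interval 1.30 to 1.99, adjusted p = 0.0103 by limma), or 3.13-fold. With normexp background correction, which adds an offset of 50 to every signal and so shrinks differences of dim probes, it was 0.82 and still called.

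The IFIT proteins form complexes with each other, and both members measured were called. IFIT2 (chr4:69559-69618) read 18.5, 12.2 and 23.5 alone and 79.9, 62.1 and 67.0 in mixed culture. Alone replicate 2 was not well above background, so 2 of the 3 alone arrays measured this probe. The probe was tested because its mixed arrays passed the filter, the group where it is high, and it was left out when all 6 arrays had to be well above background. Taken over all 6 values the log2 difference was 1.99 (limma adjusted p = 0.0136), and without alone replicate 2 it was 1.73 (0.0497).
IFIT3 (chr4:104258-104317) read 36.5, 35.5 and 36.6 alone and 70.6, 55.0 and 74.1 in mixed culture, a log2 difference of 0.87 (SE 0.12, limma adjusted p = 0.0177). Its alone arrays were the most alike of all called probes, with an SD of 0.02 on the log2 scale. With normexp and its offset of 50 the differences were 0.76 for IFIT2 and 0.42 for IFIT3, both called, and with scaling to the spike-in controls IFIT3 was not called (adjusted p = 0.0579).

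ISG15 (chr5:56237290-56237349) read 48069, 27058 and 31639 alone and 59370, 67304 and 72253 in mixed culture. No spot of the member probes was saturated, and alone replicate 1 stood nearer to mixed replicate 1 than to the other alone arrays in scaled intensity. The log2 difference was 0.94 (SE 0.21, 95% interval 0.43 to 1.45, limma adjusted p = 0.0408), or 1.91-fold. The call was lost with the replicate number as a block (adjusted p = 0.0595) and with scaling to the spike-in controls (0.0510).

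None of the OAS probes was called. OAS2, the only OAS gene with an interval above 0, read 7319, 3724 and 4452 alone and 7865, 7348 and 8968 in mixed culture with probe A_11_P0000022833. Here alone replicate 1 reached the level of mixed replicate 2, and the log2 difference of 0.70 (SE 0.24, 95% interval 0.11 to 1.28) was not called (limma adjusted p = 0.110).
The overlapping OAS2 probe A_11_P050701 read 6507, 3236 and 3724 alone and 6561, 6383 and 7711 in mixed culture, a log2 difference of 0.68 (limma adjusted p = 0.128). It is printed in 5 spots per array, whose coefficient of variation was 0.97% to 3.15%, so the spread between the alone arrays was far larger than that between spots of 1 array. Unadjusted, 2 of the 6 OAS probes had a p under 0.05, both of OAS2, and the methods' t-test called 0 of 6.

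OAS1, the smallest enzyme of the family, read 297, 188 and 199 alone and 264, 208 and 254 in mixed culture with probe A_11_P050691 (chr26:10395454-10395513). Its other probe read 6145, 3334 and 3622 alone and 5914, 4378 and 5707 in mixed culture. In both, alone replicate 1 was the highest of all 6 arrays. The log2 differences were 0.11 (95% interval -0.35 to 0.57) and 0.33 (-0.26 to 0.92), and neither was called (limma adjusted p = 0.730 and 0.405).
OAS3, the largest enzyme of the family, read 35.1, 34.9 and 36.6 alone and 38.6, 30.2 and 38.4 in mixed culture with probe A_11_P050716. Probe A_11_P060011 read 37.1, 37.5 and 44.1 alone and 40.2, 32.3 and 42.6 in mixed culture. The log2 differences were 0.00 (95% interval -0.27 to 0.27) and -0.05 (-0.36 to 0.26). The 5 spots of A_11_P050716 varied by 9.73% to 17% within an array. Both OAS3 probes were dim, though well above background on all 6 arrays. They have 42 bases in common, so the flat result is close to a single dim reading.

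**Figure D2:**
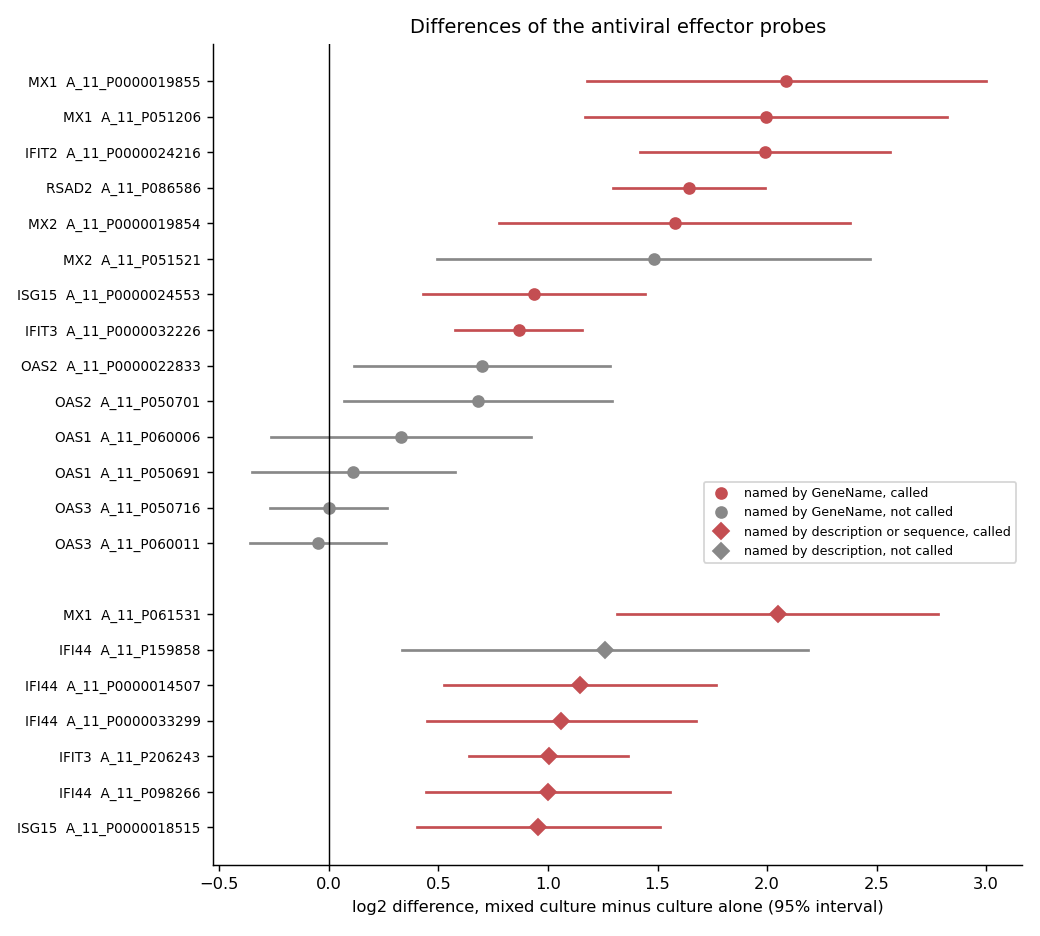
Log2 difference (mixed minus alone) of each probe with its 95% interval from limma; circles are the 14 probes found by gene name, diamonds the 7 probes assigned to a member by description or probe sequence, and red marks an adjusted p under 0.05. MX1, IFIT2 (well above background on 5 of the 6 arrays) and RSAD2 lie at the top with 1.64 to 2.09, and the 4 probes of OAS1 and OAS3 have intervals that include 0.

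Ordered by log2 difference, the member genes ran from MX1, IFIT2, RSAD2 and MX2 to ISG15, IFIT3, OAS2, OAS1 and OAS3, with 2 probes of a gene averaged. The intervals of neighbours in this order overlapped, so adjacent places are not resolved, and the place of IFIT2 uses an alone array that was not well above background. The order also changed with the background correction of dim probes. With normexp, IFIT2 (0.76) and RSAD2 (0.82) came below ISG15 (0.90), and IFIT3 (0.42) came below both OAS2 probes (0.74 and 0.67). For 5 pairs of related genes the difference of their differences was tested across the 6 arrays by an exact two-sided permutation test. The difference of IFIT2 exceeded that of IFIT3 by 1.12 on the log2 scale and that of OAS2 exceeded OAS1 by 0.47, in both cases with no overlap between the groups (exact p = 0.1, the smallest possible, 0.25 after Benjamini-Hochberg adjustment over the 5). The first of these rests on the same dim alone array of IFIT2, and with normexp the gap was smaller, between differences of 0.76 and 0.42. The difference of MX1 exceeded that of MX2 by 0.51, OAS2 exceeded OAS3 by 0.71 and OAS1 exceeded OAS3 by 0.25, with exact p of 0.2, 0.2 and 0.4, and their groups overlapped.

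Alone replicate 1 stood apart from the other alone arrays in these genes. It was above the mean of alone replicates 2 and 3 by over 0.5 on the log2 scale in 9 of the 14 probes, against 4.07% of all tested probes, where the median excess was 0.03. The excess was 1.12 and 0.95 for the MX1 probes, 1.02 and 1.1 for MX2, 0.85 and 0.91 for OAS2, 0.62 and 0.82 for OAS1, and 0.72 for ISG15. It was 0.42 for RSAD2, 0.13 for IFIT2, 0.02 for IFIT3, and -0.03 and -0.13 for OAS3. Without this array 11 of the 14 probes were called higher, against 12.6% of all probes tested, and both OAS2 probes (log2 differences 0.98 and 0.98, limma adjusted p = 0.0080 and 0.0071), OAS1 probe A_11_P060006 (0.61, 0.0388) and MX2 probe A_11_P051521 (1.85, 0.0231) joined the calls. What set this array apart was not tested.

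**Figure D3:**
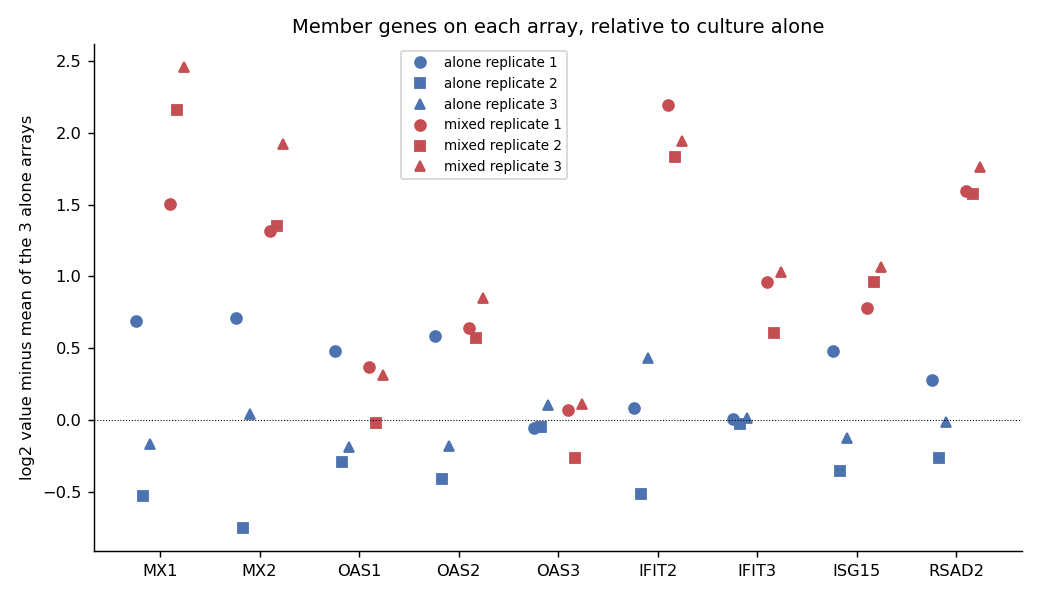
Log2 value of each member gene on each array minus the mean of the 3 alone arrays, with 2 probes of a gene averaged, culture alone in blue and mixed culture in red, and the replicate number as the symbol. Alone replicate 1 (blue circles) is the highest alone array for MX1, MX2, OAS1, OAS2, ISG15 and RSAD2, and not for OAS3, IFIT2 or IFIT3.

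Mixed replicate 2, whose label gives the other mixing ratio, was the lowest mixed array in 10 of the 14 probes and the middle one in 4. Its log2 value minus the mean of the other mixed arrays had a median of -0.22 over the members, from -0.41 to 0.24, against 0.01 over all tested probes. All the called probes were above every alone array on it too. The calls were sensitive to single arrays: 0 of 14 remained called without alone replicate 3, without mixed replicate 2 or without mixed replicate 3, where 8, 9 and 8 probes had an unadjusted p under 0.05 by limma, and 7, 9 and 12 probes were called over the whole array. Without alone replicate 2, IFIT2 and RSAD2 were called, against 24 of 26673 tested probes over the whole array. Without mixed replicate 1, 5 member probes were called, against 2009 of 26942. With the replicate number as a block, 5 of 14 were called higher, against 5.34% of all tested probes.

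Probes outside the gene name rule added values for IFI44 and second readings of MX1, IFIT3 and ISG15. They were assigned by the array's description column or by the gene name that the study gives to the same probe sequence. The study gives these names in its list of genes that differed in co-culture of RasV12 cells with a β-catenin mutant. MX1 probe A_11_P061531, ISG15 probe A_11_P0000018515 and IFI44 probe A_11_P0000014507 were found through that list alone. Their choice thus depended on a difference in that other co-culture. They are not counted among the 14 probes. IFI44 has 3 such probes on chromosome 6. Probe A_11_P0000014507 read 10514, 5513 and 5763 alone and 17503, 13113 and 15764 in mixed culture, with a log2 difference of 1.15 (SE 0.26, limma adjusted p = 0.0408). The other IFI44 probes, A_11_P0000033299 and A_11_P098266, differed by 1.06 and 1.00 (0.0466 and 0.0435). In all 3 the groups did not overlap, and alone replicate 1 was the highest alone array. A further probe, A_11_P159858, is described as IFI44 through a different transcript, so its assignment is uncertain, and it was not called (1.26, limma adjusted p = 0.0830).
A further MX1 probe, A_11_P061531, differed by 2.05 (SE 0.31, limma adjusted p = 0.0189), close to its other readings. A second IFIT3 probe, A_11_P206243, read 1469, 1091 and 1083 alone and 2524, 2090 and 2651 in mixed culture, a log2 difference of 1.00 (limma adjusted p = 0.0193). A probe at the ISG15 locus, A_11_P0000018515, differed by 0.96 (limma adjusted p = 0.0471), but its coordinates are listed in the order opposite to those of the ISG15 probe, so it may not read the ISG15 transcript.

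The pathway around the effectors was read from lists of genes, with 1 probe per gene. On this basis 5.62% of 19629 genes were called higher and 5.29% lower, and the median log2 difference was 0.01. Of 51 tested genes in the interferon lists together, 13 were called higher and 1 lower.

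At the top of the pathway, the interferon genes IFNB1 and IFNG were not well above background on any array. IFNA7 (log2 difference -0.17) and IFNK (-0.98) were tested and not called. The list's median was -0.57 and 1 of the 2 had an unadjusted p under 0.05, while the methods' t-test called 0. Of 3 tested receptors and kinases, IFNGR1 (0.06), JAK1 (-0.08) and JAK2 (-0.46), limma and the t-test each called 0, with 1 unadjusted p under 0.05 and a median of -0.08. IRF7, IFNAR1 and IFNAR2 carry no probe by gene name and were not analysed here. The receptor gene IFNLR1 was not well above background on any array, so IFNGR1 was the only receptor tested.
Among 7 STAT and IRF transcription factors, IRF5 rose by 0.84 (SE 0.11, limma adjusted p = 0.0160) and STAT3 fell by 0.30 (adjusted p = 0.0447), while STAT2 (0.22), IRF2 (0.25) and IRF9 (-0.20) were among those not called. The STAT3 call rested on 1 of its 4 probes. The list's median was 0.10. Of 8 negative regulators 0 were called by limma or by the t-test, 3 had an unadjusted p under 0.05, and the median was 0.06. USP18, the protease that removes ISG15 from its targets, differed by 1.07 (SE 0.32, limma adjusted p = 0.0755) without overlap between the groups. The next in size were PIAS3 (-0.44), PIAS1 (-0.37), SOCS1 (0.26) and PTPN6 (0.19).

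Of the 6 genes of the ISG15 conjugation machinery, HERC5, the ligase that attaches ISG15 to newly made proteins, rose by 1.21 (SE 0.17, limma adjusted p = 0.0182), from 417, 297 and 293 alone to 669, 752 and 892 in mixed culture. HERC6 (0.51), UBA7 (0.30), ARIH1 (-0.11), UBE2L6 (0.08) and USP16 (-0.01) were not called, and the list's median was 0.19.
Among 25 tested genes of the list of other antiviral effectors, 11 rose and 0 fell, the methods' t-test called 0, and the median was 0.50. By limma, 1 was lower at an unadjusted p under 0.05, IFI6. It read 300, 274 and 235 alone and 217, 213 and 210 in mixed culture, without overlap between the groups. The log2 difference of IFI6 was -0.33 (SE 0.10) and was not called (limma adjusted p = 0.0851). CMPK2, a mitochondrial nucleotide kinase, rose by 2.16 (SE 0.43, limma adjusted p = 0.0313), from 696, 217 and 238 alone to 1559, 1270 and 1618 in mixed culture. PARP14 (1.53), PARP9 (1.51), IFIT1 (1.31) and DTX3L (1.30) followed, with adjusted p between 0.0241 and 0.0353. The largest differences not called were IFI44L (1.47, adjusted p = 0.0936), TREX1 (0.58), PARP12 (0.55), LGALS9 (0.50) and PML (0.37). Without alone replicate 2, alone replicate 3, mixed replicate 2 or mixed replicate 3, 0 genes of the interferon lists were called by limma, while 20, 19, 26 and 22 of them had an unadjusted p under 0.05. Without mixed replicate 1 there were 2, and without alone replicate 1 there were 25.

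**Figure D4:**
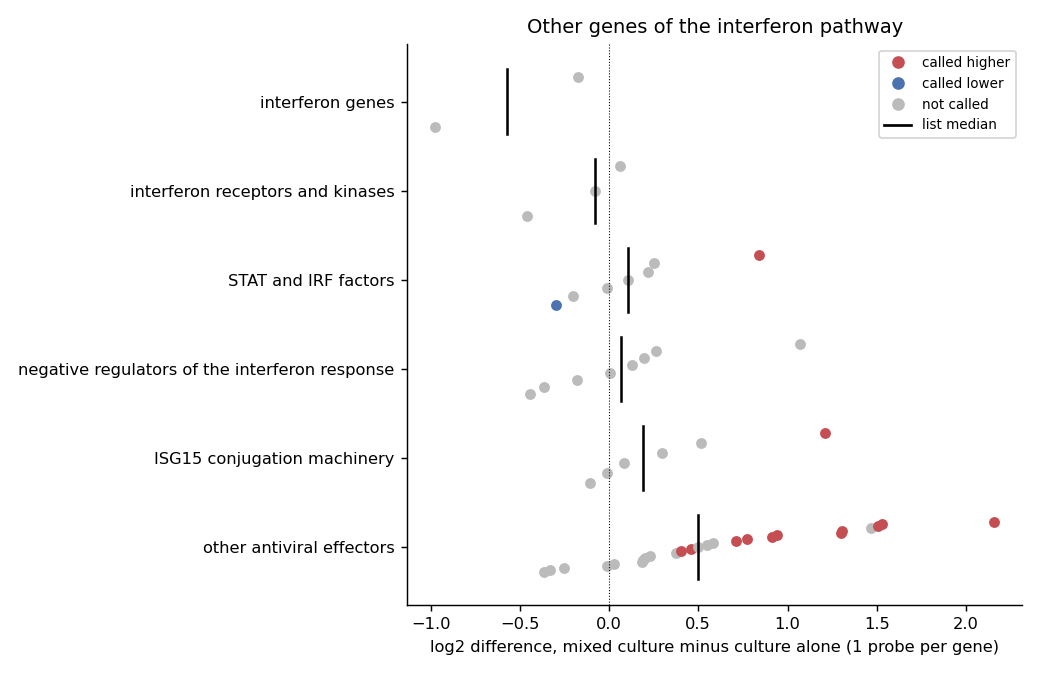
Log2 difference (mixed minus alone) of each tested gene in 6 lists of the interferon pathway, 1 point per gene, red for called higher, blue for called lower and grey for not called, with a black bar at the list's median. The list of other antiviral effectors has 11 of 25 genes called higher. None of the 2 interferon genes, 3 receptors and kinases or 8 negative regulators tested was called.

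The genes whose pattern over the 6 arrays was most like the mean of the 9 member genes were sought among 1995 probes with a range of at least 1 on the log2 scale, and probes without a gene symbol were passed over. IFI35 came first (Pearson r = 0.999), with log2 difference 0.77, followed by IFGGC1 (0.997), BST2, a tether of budding virions (0.992), TCAIM (0.991) and TFAP2B (0.991). These values describe 6 arrays in 2 groups that differ. With the group means removed, the coefficients of these 5 genes were 0.937 to 0.996. The genes were picked by their correlation over the same 6 arrays, so these coefficients are no separate support. IFGGC1 was dim, from 11.1 in alone replicate 2 to 42.3 in mixed replicate 3. Each member gene was also set against the mean of the other 8. The coefficient was 0.91 to 0.98 for MX1, MX2, OAS2, IFIT2, IFIT3, ISG15 and RSAD2. It was 0.62 for OAS1 and -0.02 for OAS3, whose probes were dim.

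Marker lists were read beside these values. Each summed intensity below is carried mostly by the few brightest probes of its list, so it does not describe the list as a whole. Of the 13 renal epithelial markers tested, 1 was called, CLDN3 (0.76, limma adjusted p = 0.0142). By limma 6 had an unadjusted p under 0.05, and the t-test called 1. The largest uncalled differences were CLDN4 (0.72), CLDN7 (-0.52) and CDH1 (-0.37). The summed intensity of these markers was 453783 to 557316 alone and 483300 to 563154 in mixed culture. Of 15 leukocyte markers, PTPRC, CD3D, MS4A1, ITGAX, LYZ and CD163 were not well above background on any array. The 7 tested ones had a summed intensity of 1251 to 1373 alone and 1387 to 1462 in mixed culture, and 0 were called by limma or the t-test, with 0 unadjusted p under 0.05. Of 12 fibroblast and endothelial markers, COL3A1, PDGFRA and CDH5 were not well above background on any array, the 8 tested ones summed to 4399 to 5832 alone and 4936 to 6018 in mixed culture, and 0 were called (3 with an unadjusted p under 0.05, 0 by the t-test). Genes that report Ras-MAPK output fell in 4 cases and rose in 1 of 16 tested (median -0.34, summed intensity 90127 to 92790 alone and 76399 to 86740 in mixed culture). The array's HRAS probe fell by 0.51 (limma adjusted p = 0.0377), from 186790, 194062 and 199425 alone to 158421, 120430 and 129958 in mixed culture, and whether it reads the transgene is not known. PLAUR, EPHA2, CCND1 and FOSL1 fell by 0.68, 0.71, 0.59 and 0.52, while EGR1 rose by 0.77. The part of these shifts, or of unsorted MDCK cells in the mixed samples, in the effector values was not tested.

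**Figure D5:**
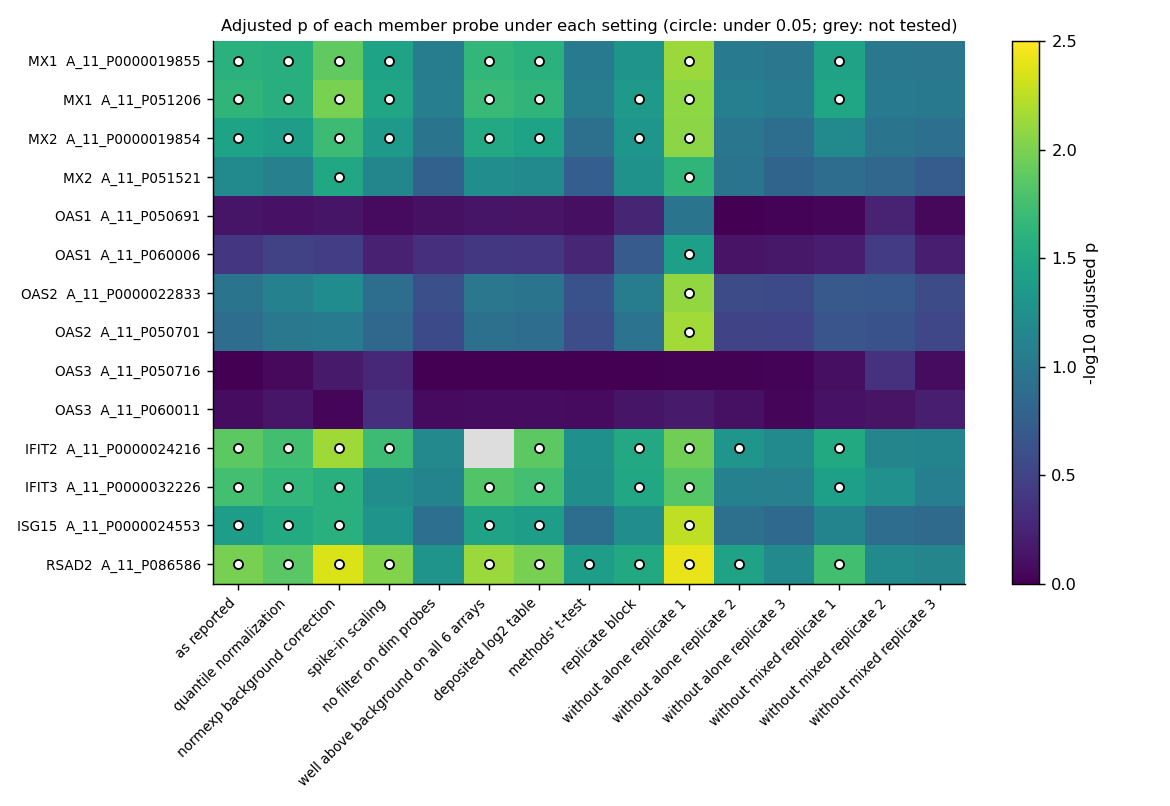
Adjusted p (-log10 colour scale) of each member probe under the reported setting and 14 alternatives, with a circle where it is under 0.05 and grey where the probe was not tested. RSAD2 is called under 10 of the 14 alternatives, and no OAS3 probe under any.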

How the data were processed

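Total RNA of the 6 samples was measured on 1-colour canine arrays. The authors deposited, per array, the output of Agilent Feature Extraction (10.10.1.1 in the file headers) with an intensity per spot, background-corrected and detrended as the processed signal. They also deposited a log2 table, which equals the log2 processed signal minus each array's 75th percentile within 0.08. No normalization is given in the methods.

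Here, control and outlier-flagged spots were left out, spots of 1 probe averaged, and log2 values taken minus each array's 75th percentile. Probes well above background on every array of 1 group or both were tested with lmFit and eBayes (limma 3.58.1, R 4.3.3), two-sided, Benjamini-Hochberg adjusted over all 26535 probes, threshold 0.05. Python 3.11.15, pandas 2.3.3, numpy 2.4.6, scipy 1.17.1 and matplotlib 3.10.9 were used. The fit was tested on simulated data.

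The members, lists and tests were chosen with earlier results of these data known. Named are all members, per list at most 5 called and 5 uncalled genes by size, IFI6, and the 5 genes most like the members over the arrays. Arrays with the same replicate number, after removing group means, correlated at 0.349, 0.162 and 0.296, all above 0.1, and were taken as pairs for the block. Other pairs gave -0.329 to 0.238. The number of arrays limits precision.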

Additional observations from a re-analysis of the deposited data

How the results depend on the processing

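The 7 called member probes became 7 with quantile normalization, 8 with normexp, 5 with spike-in scaling, 6 with the filter for all 6 arrays (which leaves out IFIT2), 7 in the deposited log2 table, 6 of 9 with 1 probe per gene and 5 with a 2-fold minimum. The methods' t-test left 1 (RSAD2) and the fit with no filter on dim probes 0, where 10 had an unadjusted p under 0.05 by limma, as many as before. Leaving out 1 array at a time gave 0 to 11. Over the whole array the 2978 calls became 2989 with quantile normalization, 3977 with normexp and 935 with spike-in scaling. They became 3039 with the filter for all 6 arrays, 2978 in the deposited log2 table and 2143 with 1 probe per gene. With no filter there were 12, by the t-test 826 and with a 2-fold minimum 300, and leaving out 1 array gave 7 to 7335. The 14 called genes of the interferon lists became 8 with spike-in scaling and 0 to 25 when 1 array was left out.

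With the replicate number as a block, 5 member probes, 2825 probes and 17 list genes were called. The block ended the calls of MX1 probe A_11_P0000019855 and ISG15 and changed no other member call. Spike-in scaling moved the median of all tested probes from 0.00 to -0.16.

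The differences of MX1, MX2, OAS2, IFIT2, IFIT3, ISG15 and RSAD2 were positive under every alternative in which they were tested, as was that of OAS1 probe A_11_P060006. Uncalled differences near 0 changed sign. OAS1 probe A_11_P050691 was -0.049 with spike-in scaling and -0.013 to 0.319 when 1 array was left out. OAS3 probe A_11_P050716 was -0.037 with quantile normalization, -0.16 with spike-in scaling and -0.060 to 0.117 when 1 array was left out. OAS3 probe A_11_P060011 was 0.012 with normexp and -0.131 to 0.069 when 1 array was left out. A block for the slide could not be fitted because no slide carried both groups. The causes were not tested.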
